A study of Homo sapiens with 6 samples.

Results

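Antisense RNAs named after the gene they face were examined in BEAS-2B, a human line of immortalised bronchial epithelium. Members were chosen by their counts and names: they were the rows whose symbol is a gene name followed by -AS, with or without a number, and that had 10 or more counts in at least 3 of the 6 libraries. They were 466 of the 1794 rows named in this way and of the 61806 genes measured. The gene named before -AS was taken as the partner, and 465 members had one in the table. HOXB-AS1, named after a gene cluster, had none. The libraries were 3 of control cells and 3 of cells given 15-KETE, a keto metabolite of arachidonic acid, and in both groups they were numbered 1 to 3. The labels state no dose and no exposure time. They do not say whether replicates came from separate cultures, so each p-value reflects the spread among these libraries alone, and that spread may be technical. All of the cells came from a single line. Polyadenylated RNA was sequenced, so antisense RNAs without a poly(A) tail are outside the measurement.

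Antisense RNAs are transcribed from the strand opposite to another gene. Many start at a promoter shared with their partner and run away from it, others cross the far end of the partner or lie within it, and single examples are known to raise, lower or leave unaffected the partner's transcript. Nuclear RNA decay removes many transcripts of this kind, and RNA paired with its complement can be bound by editing enzymes and by sensors of double-stranded RNA. No source used here says whether reads were counted by strand. Where exons of the pair overlap, reads of an antisense RNA and of its partner may therefore not have been told apart. Each level below is a level of assigned reads.

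Library totals ran from 16844781 to 22876808 counts, and control replicate 2 stood apart from the other libraries. Control replicate 3 and 15-KETE replicate 3 differed little, with a chi-square of 2.40 per gene against 10.5 or more for every other pair of libraries. Same-numbered libraries deviated together, so each comparison below is given by group and, where it changes a count, by same-numbered pair. Summed CPM (counts scaled to the library total) of 10 markers listed for a bronchial epithelial line ran from 1671 to 4781. VIM and KRT7 led this sum, and VIM, at 588 to 1259 CPM, is not specific to epithelium. The keratins KRT8 and KRT18 stood at 226 to 687 and 210 to 738 CPM, and KRT5 and KRT19 at 3.92 to 9.78 and 0.868 to 2.00 CPM. Of the other markers in this list, CDH1 stood at 2.69 to 6.68 CPM and EPCAM at 0.747 to 2.97 CPM. TP63 and NKX2-1 were at 0 in some libraries. The sums of ciliated, secretory, endothelial and erythroid markers were at or below 1.23 CPM in every library. The 5 fibroblast markers summed to between 24.3 and 34.3 CPM, nearly all of it COL1A1, and the 5 leukocyte markers to between 5.803 and 16.0 CPM, nearly all of it CD14.

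An overlap at the 5′ ends was the most frequent arrangement. In the coordinates of the table, 196 pairs overlapped head to head, 100 overlapped tail to tail, 98 antisense genes lay inside their partner and 41 partners lay inside the antisense gene. A further 28 pairs diverged without overlap. LYRM4-AS1 converged on LYRM4 without touching it, and FAM131B-AS2 was on the same strand as FAM131B. Exons of the pair overlapped in 350 pairs on the GENCODE 29 annotation of GRCh38, by a median of 288.5 bases and by 3 to 11381 bases. They did not overlap in 114 pairs, and the overlap was unknown for 1. The largest exon overlap was that of TTN-AS1 with TTN, the gene of the giant muscle protein titin.

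BACE1-AS and MCM3AP-AS1 show what such an overlap is at the level of bases. BACE1-AS faces BACE1, the protease that makes the first cut in amyloid precursor protein, and MCM3AP-AS1 faces MCM3AP, a scaffold of messenger RNA export. A stretch of 30 bases is printed for each, taken from the middle of the longest block that an antisense exon shares with the coding part of a partner exon, because a read of these letters belongs to either gene unless its strand is known. On GRCh38 the first lies at chr11:117289674-117289703, with BACE1-AS on the plus strand and BACE1 on the minus strand. The second lies at chr21:46243579-46243608, with MCM3AP-AS1 on the plus strand and MCM3AP on the minus strand. All letters are capitals because every base is shared, and within a pair the lines are reverse complements of each other.
BACE1-AS: GCAGATGGCAGCCATGACATAGGCTATGGT
BACE1: ACCATAGCCTATGTCATGGCTGCCATCTGC
MCM3AP-AS1: GGGAGGGACTCTTGCTCTTCCACCTACAGT
MCM3AP: ACTGTAGGTGGAAGAGCAAGAGTCCCTCCC

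Many pairs started close together. RefSeq promoter windows on GRCh38.p14, from 250 bases before to 50 bases after a gene's start, were found for 345 of the 465 distinct member symbols, and 309 pairs had a window for both genes on opposite strands. The starts lay within 1000 bases of each other in 131 of these, of which 60 pointed away from each other and 71 overlapped. In 62 pairs they lay within 300 bases. Among windows of the members whose starts were within 1000 bases of the partner's, the letters GGGCGG, the core of the GC box, were present on either strand in 94 of 130 (72.3%). The same letters were in 44.6% of all 27305 windows. TATAAA, the TATA box, was in 2.31% of these members' windows and in 12% of all windows. CCAAT was in 29.2% and 35.7%, the AP-1 site TGACTCA in 1.54% and 4.92%, and the ETS site CCGGAAG in 14.6% and 10.7%. Taking only the starts that pointed away left 59 windows, of which 81.4% held GGGCGG and 1.69% held TATAAA. Over all 345 members with a window, GGGCGG was in 58.3%, TATAAA in 6.67%, CCAAT in 30.4%, TGACTCA in 4.93% and CCGGAAG in 14.5%. The 27305 windows were not limited to genes expressed in these cells, as the members were, and no background of expressed genes or of partners was taken. These are matches of letters, and nothing was measured of any factor at them.

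The windows of 4 members are printed because the pairs come back below: CD109-AS1 and URB1-AS1 were among the antisense RNAs of smallest p, THAP9-AS1 was among the most abundant, and TPT1-AS1 stood far below an abundant partner. Each runs in the direction of the antisense gene, whose own start is base 251. Capitals mark matches to the 5 motifs on either strand, and no match overlapped another. On GRCh38.p14, the CD109-AS1 window is chr6:73696082-73696381 on the minus strand, and the start of CD109 is at its base 179. The URB1-AS1 window is chr21:32392883-32393182 on the plus strand, with the start of URB1 at base 130. The TPT1-AS1 window is chr13:45341095-45341394 on the plus strand, with the start of TPT1 at base 89. The THAP9-AS1 window is chr4:82900867-82901166 on the minus strand, and the start of THAP9 lies outside it because these genes overlap by 181 bases at their starts.
CD109-AS1: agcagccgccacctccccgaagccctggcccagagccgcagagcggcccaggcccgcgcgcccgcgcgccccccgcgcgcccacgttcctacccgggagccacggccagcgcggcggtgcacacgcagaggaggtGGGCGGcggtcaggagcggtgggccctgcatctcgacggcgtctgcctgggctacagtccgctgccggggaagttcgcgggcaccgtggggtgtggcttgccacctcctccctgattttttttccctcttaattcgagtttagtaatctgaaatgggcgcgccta
URB1-AS1: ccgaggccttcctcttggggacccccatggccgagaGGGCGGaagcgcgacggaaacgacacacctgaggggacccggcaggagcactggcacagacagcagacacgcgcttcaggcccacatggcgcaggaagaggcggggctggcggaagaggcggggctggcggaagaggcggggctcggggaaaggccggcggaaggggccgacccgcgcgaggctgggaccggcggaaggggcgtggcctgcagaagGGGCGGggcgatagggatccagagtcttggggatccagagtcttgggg
TPT1-AS1: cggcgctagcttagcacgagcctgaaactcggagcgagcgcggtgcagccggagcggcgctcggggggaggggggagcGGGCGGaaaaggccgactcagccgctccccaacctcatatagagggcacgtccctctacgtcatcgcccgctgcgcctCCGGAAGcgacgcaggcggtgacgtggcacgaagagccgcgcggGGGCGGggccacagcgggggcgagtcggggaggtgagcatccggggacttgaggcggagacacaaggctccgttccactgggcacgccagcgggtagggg
THAP9-AS1: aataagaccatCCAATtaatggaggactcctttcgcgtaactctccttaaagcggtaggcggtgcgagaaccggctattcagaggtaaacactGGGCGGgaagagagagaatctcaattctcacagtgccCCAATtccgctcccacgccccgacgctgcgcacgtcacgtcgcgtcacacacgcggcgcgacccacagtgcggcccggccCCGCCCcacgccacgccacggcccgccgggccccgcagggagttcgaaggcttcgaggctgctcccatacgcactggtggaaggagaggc
GGGCGG is present in all 4 windows, CCAAT in that of THAP9-AS1 and CCGGAAG in that of TPT1-AS1. TATAAA and TGACTCA are in none of these 4.

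Most members were far less abundant than their partners. The median level of the members with a partner was 0.58 FPKM (the deposited unit, counts scaled to exonic gene size and library total), and that of the partners, pair by pair, was 5.86 FPKM. Only 137 of the 466 members were above 1 FPKM and 13 were above 5 FPKM, while 369 of the 457 distinct partners were above 1 FPKM. The level ratio of a pair was taken as the log2 of (count + 0.5) per kilobase, antisense RNA over partner. Its median over pairs was −3.15, and the antisense RNA was below its partner in every library in 356 of 465 pairs. It was above its partner on average in 79 pairs and in every library in 54. The rule set a minimum for the antisense RNA alone, and the partner was under that minimum in 39 of the 79. Among the 426 pairs with both genes at the minimum, 40 antisense RNAs were above their partner.

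**Figure D1:**
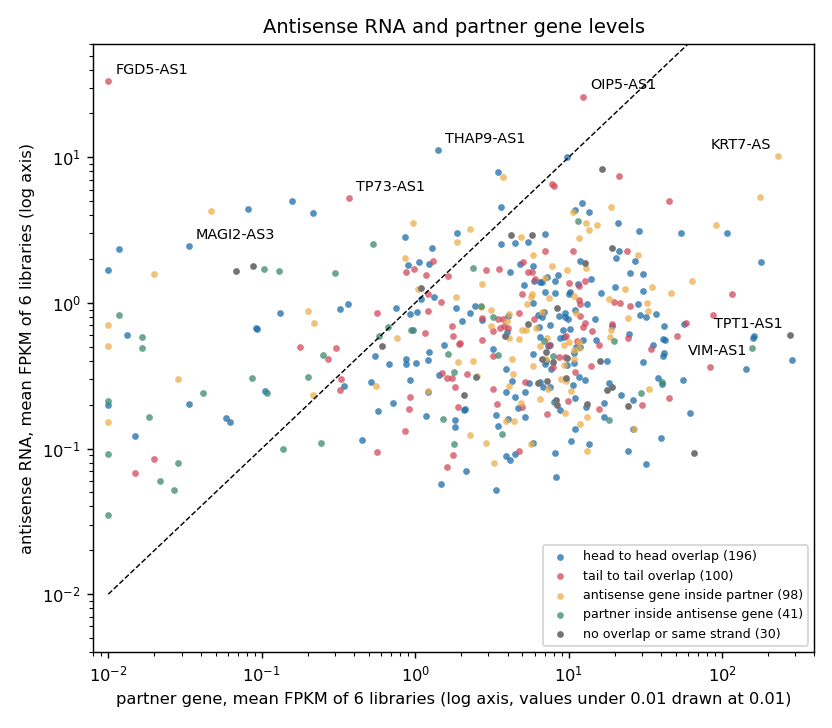
Mean FPKM of 6 libraries for each antisense RNA (vertical, log axis) against its partner (horizontal, log axis, values under 0.01 drawn at 0.01), 465 pairs coloured by their arrangement, with a dashed line of equal levels. Most pairs lie below the line, and 20 of the 41 pairs with the partner inside the antisense gene lie above it by the count ratio.

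The level ratio is given here by the arrangement of the pair, as a description without a test. Where the partner lay inside the antisense gene, the median log2 ratio was −0.08 and 20 of 41 antisense RNAs were above the partner, with the partner under the minimum in 15 of those 41 pairs. In divergent pairs the median was −4.13 and 2 of 28 were above. It was −3.53 in head to head pairs, −3.32 with the antisense gene inside the partner and −2.63 in tail to tail pairs. Pairs whose exons overlapped had a median of −3.21 and those without exon overlap −2.92. Across libraries the median ratio was −3.27, −3.41 and −2.99 in control replicates 1, 2 and 3 and −3.26, −3.11 and −3.07 in the 15-KETE libraries in the same order, so the groups overlapped. The partner was at the minimum for 424 of 463 members whose partner was found by symbol (91.6%) and for 808 of 1312 rows that were not members (61.6%), a share that depends on where the rule puts its threshold.

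FGD5-AS1 was the most abundant member. It runs tail to tail with FGD5, a guanine nucleotide exchange factor known from endothelial cells. FGD5-AS1 had 35.5, 23.1 and 34.2 FPKM in the controls and 37.8, 34.9 and 34.8 FPKM in the 15-KETE libraries, while FGD5 was listed at 0 in 5 libraries and at 0.01 FPKM in the other. OIP5-AS1, known in fish and mice as Cyrano and for its site for miR-7, followed with 30.1, 14.6 and 27.7 FPKM in the controls and 35.0, 21.5 and 28.0 FPKM with 15-KETE. Its partner OIP5, a subunit of the Mis18 complex that loads centromeric histone, had 10.9, 18.9 and 11.4 FPKM in the controls and 11.8, 10.01 and 11.4 FPKM with 15-KETE. Control replicate 2 held the lowest OIP5-AS1 value and the highest OIP5 value. In that library alone the antisense RNA was below its partner.

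THAP9-AS1 exceeded THAP9, a gene derived from a transposase, in every library. It had 10.5, 5.88 and 14.2 FPKM in the controls and 14.1, 7.82 and 14.4 FPKM with 15-KETE, against 0.78 to 1.91 FPKM for THAP9. In both genes and both groups the replicate 2 library was lowest. KRT7-AS lies inside KRT7, a keratin of simple epithelia, and had 6.68, 10.4 and 12.4 FPKM in the controls and 7.11, 13.3 and 11.2 FPKM with 15-KETE. KRT7 itself stood at 135 to 442 FPKM, with control replicate 2 highest, and the groups of both genes overlapped. The other 6 of the 10 most abundant members had means between 6.597 and 10.1 FPKM. Of these, RUSC1-AS1, MAPKAPK5-AS1 and KLC1-AS1 had a higher mean than their partner, and SH3RF3-AS1, MRPL20-AS1 and ARRDC1-AS1 had a lower one. KLC1-AS1 had 8.05, 1.83 and 8.92 FPKM in the controls and 8.89, 6.69 and 9.73 FPKM with 15-KETE, while KLC1, a kinesin light chain, stayed between 3.32 and 3.92 FPKM. The 10 most abundant members held 30.9% of all counts of the 466.

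**Figure D2:**
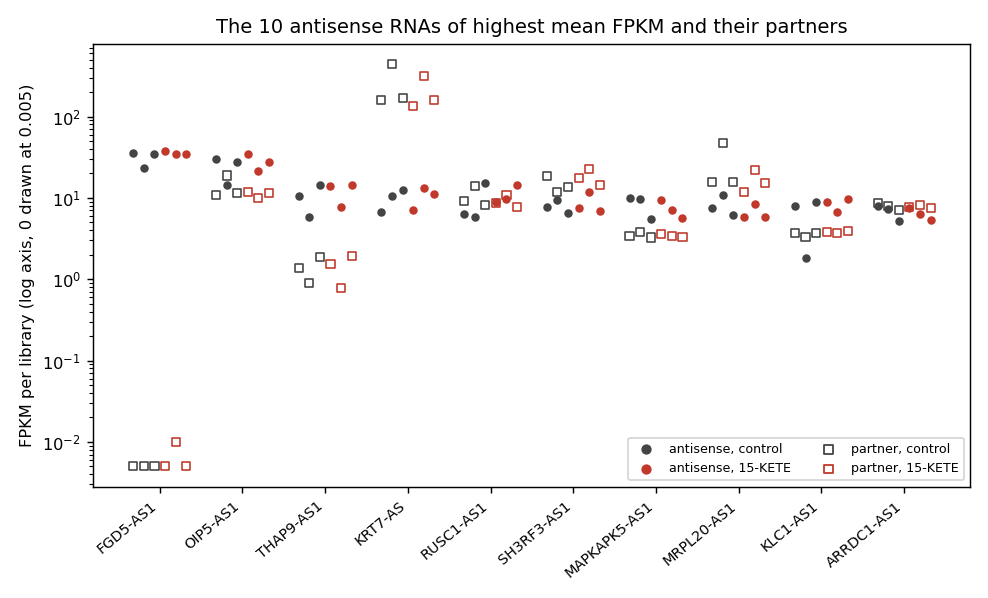
FPKM per library (log axis, 0 drawn at 0.005) of the 10 antisense RNAs of highest mean FPKM (filled circles) and of their partners (open squares), control in grey and 15-KETE in red, replicates 1 to 3 from left to right. The grey and red points overlap in all 10 antisense RNAs, and FGD5 is at or near 0 below FGD5-AS1.

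At the other end stood antisense RNAs beside very abundant partners. TPT1-AS1 averaged 0.60 FPKM beside 277 FPKM of TPT1, the translationally controlled tumour protein, a mean log2 ratio of −8.87. VIM-AS1 averaged 0.588 FPKM beside 162 FPKM of vimentin (VIM), a mean log2 ratio of −8.26. MAGI2-AS3, at 2.46 FPKM, exceeded the scaffold gene MAGI2, at 0.0333 FPKM, by 6.11 on the same scale. TP73-AS1, at 5.23 FPKM, exceeded the p53 family gene TP73, at 0.37 FPKM, by 3.91. At the count threshold itself, ILVBL-AS1, CCDC54-AS1 and WWC2-AS2 had a third-highest count of 10 and totals of 45, 48 and 48 counts. TBX18-AS1, OXCT1-AS1 and CCDC28A-AS1 lay just outside it with a third-highest count of 9 and totals of 71, 63 and 62 counts.

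The design asked which transcripts differ between cells given 15-KETE and control cells. No member differed by the test. In edgeR's quasi-likelihood test 0 of the 438 members that passed the filter on low counts had an adjusted p below 0.05, with a smallest adjusted p of 0.9996, and the same held for 0% of all 15451 genes. DESeq2, limma-voom and limma-trend on log2(FPKM + 0.1) also called 0 members, and a fit blocked on the replicate number called 0 with a smallest adjusted p of 0.695. At an unadjusted p below 0.05 there were 4 members, against 0.162% of all genes. They were 3 higher and 1 lower with 15-KETE, against 0.0841% and 0.0777% of all genes. That count was 37 without control replicate 3, against 5.62% of all genes. It was 3 without control replicate 1, 1 without control replicate 2 or without 15-KETE replicate 1, and 0 without 15-KETE replicate 2 or 3. With the block it was 22, against 4.71% of all genes, of which 15 were higher and 7 lower, against 2.41% and 2.3%. With the block and without both libraries numbered 1, 2 or 3 it was 19, 15 and 53, against 3.83%, 2.32% and 12.2% of all genes. These counts include members that met the count minimum in the 15-KETE libraries alone, which were thus chosen through that group. Without those members, the count over all 6 libraries was 1 of 434 without the block and 19 of 434 with it. None of the 418 tested partners was called. The 28 members that did not pass the filter were not tested.

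The interval of the difference was wide for most members. It lay within 2-fold in both directions for 88 of 438 members (20.1%), for 254 of 418 partners (60.8%), for 50.7% of all genes, for 23.9% of -DT transcripts and for 171 of 1220 other long noncoding RNAs. With the block it did so for 43.4% of members, 90.7% of partners, 78.5% of all genes, 45.6% of -DT transcripts and 36.7% of other long noncoding RNAs. In bulk RNA, fewer cells with a transcript and less of it per cell cannot be told apart.

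Of the 4 members at an unadjusted p below 0.05, 3 were of low counts and had met the count minimum in the 15-KETE libraries alone. There were 6 such members of the 466, and 0 that met it in the controls alone, so these were chosen through the libraries in which they were high and their differences are a description. CD109-AS1 starts head to head with CD109, a surface glycoprotein that binds TGF-beta, at the window printed above. It had 3, 4 and 9 counts in the controls and 15, 21 and 15 counts with 15-KETE, or 0.16, 0.216 and 0.511 CPM against 0.806, 0.929 and 0.813 CPM. All 3 of the 15-KETE values lay above the controls. The log2 fold change was 1.51 ± 0.57 (SE, n = 3 per group; edgeR adjusted p = 0.9996). CD109 had 112, 73.7 and 152 CPM in the controls and 132, 127 and 140 CPM with 15-KETE, and these overlapped.

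DCUN1D2-AS lies inside DCUN1D2, whose product promotes attachment of NEDD8 to cullins, and shares no exon bases with it. It had 9, 1 and 6 counts in the controls and 19, 19 and 17 counts with 15-KETE, with a log2 fold change of 1.65 ± 0.65 (SE). DCUN1D2 was nearly level across the libraries, at 40.7 to 41.8 CPM in the controls and 43.0 to 44.1 CPM with 15-KETE. Its groups did not overlap and were slightly higher with 15-KETE. Among the 418 tested partners the groups did not overlap in 12 (2.87%), beside 2.3% of all genes. ZKSCAN7-AS1, tail to tail with the zinc finger gene ZKSCAN7, had 4, 1 and 9 counts in the controls and 11, 19 and 19 counts with 15-KETE, with a log2 fold change of 1.65 ± 0.69 (SE). ZKSCAN7 had 6.27 to 9.42 CPM in the controls and 7.47 to 10.1 CPM with 15-KETE, which overlapped. The other members that met the minimum only with 15-KETE were KCNIP2-AS1, LIX1L-AS1 and ATP1B3-AS1, of which KCNIP2-AS1 passed the filter of the test.

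URB1-AS1 was the lower of the 4, and it met the count minimum in every library. It diverges from URB1, a nucleolar factor of ribosome biogenesis, with starts 121 bases apart. It had 56, 70 and 57 counts in the controls and 46, 37 and 31 counts with 15-KETE, or 2.99, 3.78 and 3.23 CPM against 2.47, 1.64 and 1.68 CPM. The groups did not overlap. The log2 fold change was −0.79 ± 0.35 (SE, n = 3 per group; edgeR adjusted p = 0.9996), and the same-numbered pairs gave −0.26, −1.16 and −0.90. URB1 had 63.1, 53.4 and 64.7 CPM in the controls and 56.6, 93.0 and 66.3 CPM with 15-KETE, which overlapped.

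The next members by p were mostly lower with 15-KETE, none at an adjusted p below 0.9996 in edgeR's test. UBE2D3-AS1, inside the gene of a ubiquitin-conjugating enzyme, had 1.65, 1.78 and 1.93 CPM in the controls and 1.07, 0.84 and 1.03 CPM with 15-KETE. MAP3K4-AS1, head to head with the gene of a stress kinase, had 1.49, 1.94 and 1.19 CPM against 0.698, 1.02 and 0.868 CPM. ASH1L-AS1, head to head with the gene of a histone methyltransferase, had 2.56, 2.21 and 2.16 CPM against 1.61, 1.59 and 1.03 CPM. In these 3 the groups did not overlap. The groups of DLG5-AS1 and ILRUN-AS1 also lay apart, lower with 15-KETE, and those of COA6-AS1, SERTAD4-AS1, IDH1-AS1 and PAN3-AS1 overlapped. PRKAR2A-AS1, head to head with the gene of a regulatory subunit of protein kinase A, was higher with 15-KETE, at 1.45, 1.55 and 1.63 CPM against 1.07, 0.756 and 0.851 CPM, without overlap. EMC3-AS1, inside the gene of a subunit of the endoplasmic reticulum membrane complex, had 13.0, 3.67 and 9.70 CPM in the controls and 14.1, 16.4 and 12.3 CPM with 15-KETE. Its groups overlapped, and its lowest value was that of control replicate 2. In all, the groups did not overlap in 22 of 438 members, beside 2.3% of all genes. These were 10 higher and 12 lower with 15-KETE, beside 1.22% and 1.07%. Without the members that met the minimum with 15-KETE alone, they did not overlap in 18 of 434, 6 higher and 12 lower. Among the other long noncoding RNAs they did not overlap in 54 of 1220 (4.43%).

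**Figure D3:**
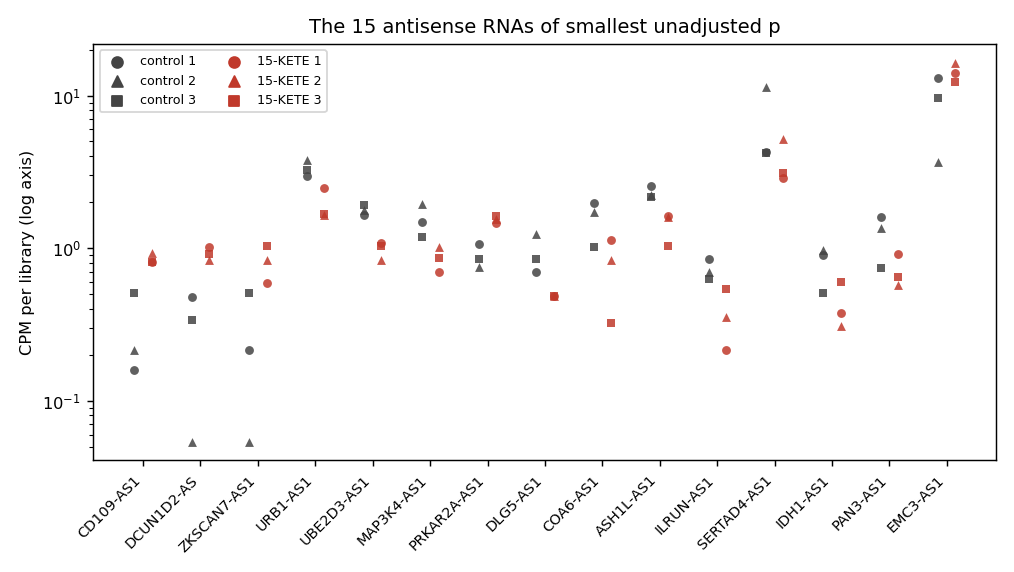
CPM per library (log axis) of the 15 antisense RNAs of smallest unadjusted p, control in grey and 15-KETE in red, with the marker giving the replicate number. The first 3 were chosen through the 15-KETE libraries, in which they had 11 to 21 counts each; the last, EMC3-AS1, has its lowest value in control replicate 2.

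In several studied members both replicate 3 libraries lay apart from the other 4. STARD4-AS1, head to head with the sterol carrier gene STARD4, had 4.06, 1.30 and 14.3 CPM in the controls and 4.997, 5.75 and 14.5 CPM with 15-KETE. CDKN2B-AS1, also known as ANRIL, contains the gene of the cell cycle inhibitor CDKN2B and had 5.66, 4.81 and 18.3 CPM in the controls and 8.87, 9.02 and 18.4 CPM with 15-KETE. TTN-AS1 had 7.84, 6.97 and 19.2 CPM against 11.2, 11.1 and 19.03 CPM. In all 3 the replicate 3 libraries of both groups were highest and close to each other. CDKN2B stayed between 24.5 and 29.99 CPM, whereas TTN ran from 4.43 to 40.2 CPM and was also highest in the replicate 3 libraries. The highest control CPM was more than 2-fold above the lowest in 234 of 438 members (53.4%), in 161 of 418 partners (38.5%) and in 42.6% of all genes. For the 15-KETE libraries this held for 135 members (30.8%), 55 partners (13.2%) and 18.4% of all genes. The part of low counts in this spread was not tested.

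ZBTB47-AS1, singled out after its values were seen, was the only member called in any alternative. It runs head to head with the zinc finger gene ZBTB47 and had 3.20, 0.162 and 14.7 CPM in the controls and 7.09, 4.16 and 15.2 CPM with 15-KETE. Pairs 1 and 2 were apart and pair 3 was nearly level. With the block and without both replicate 3 libraries its log2 fold change was 2.204 ± 0.40 (SE, n = 2 per group; edgeR adjusted p = 0.000738), when 0.0764% of all genes were called. Without both replicate 1 libraries 0 members were called, beside 0.00627% of all genes, and without both replicate 2 libraries 0, beside 0%. With the block over all 6 libraries it was 1.20. ZBTB47 stayed between 5.75 and 8.93 CPM.

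The median difference of the members from control was smaller than the differences among the control libraries. The median log2 fold change was 0.06, with 251 of 438 above 0, beside 0.04 for the partners (235 of 418) and −0.00 for all genes. It was 0.04 for other long noncoding RNAs and −0.06 for the 180 divergent transcripts named -DT. The 12 intronic transcripts named -IT had 0.36, with 10 above 0. Their same-numbered pairs gave medians of 0.58, 0.59 and 0.04. In the same-numbered pairs the median of the members was 0.10, 0.14 and −0.03. It was −0.00 without control replicate 2, −0.03 without 15-KETE replicate 3 and 0.20 without control replicate 3. Members had higher values in all 3 pairs in 79 cases (18%) and lower in all 3 in 62 (14.2%), beside 14.6% and 14.5% of all genes.

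The 466 members held 0.231%, 0.170% and 0.270% of the counts of control replicates 1, 2 and 3 and 0.256%, 0.217% and 0.265% of the 15-KETE libraries. The widest 95% Wilson interval among these ran from 0.268% to 0.273%, which covers counting error only. The group means were 0.224 ± 0.0504% and 0.246 ± 0.0253% (SD, n = 3), and the groups overlapped. Relative to each gene's mean of the 6 libraries, the median member deviated by −0.07, −0.21 and 0.20 in the controls and by 0.07, −0.01 and 0.16 with 15-KETE. The other long noncoding RNAs showed a like order of the libraries, and the median of all genes stayed within 0.02 of 0.

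**Figure D4:**
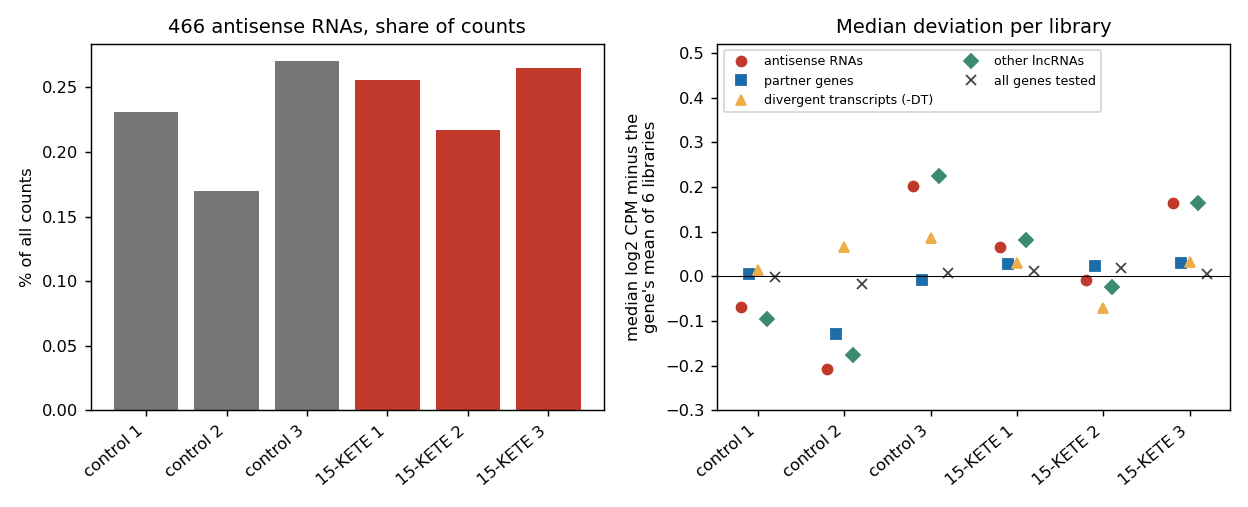
Left, share of all counts held by the 466 antisense RNAs in each library, bars from 0. Right, median deviation of log2 CPM from the gene's mean of 6 libraries for the antisense RNAs, their partners, -DT transcripts, other long noncoding RNAs and all genes tested. Control replicate 2 is lowest for the antisense RNAs, at −0.21, and control replicate 3 highest, at 0.20.

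Antisense RNA and partner differed from control in the same direction about as often as not. Of 397 pairs with both genes tested, 208 had log2 fold changes of the same sign (52.4%), 132 with both higher and 76 with both lower. In 100 pairs the antisense RNA was higher and the partner lower, and in 89 the reverse. Among 2822 other overlapping pairs of genes on opposite strands the signs were the same in 1461 (51.8%). By same-numbered pair the sign was the same in 197, 205 and 196 of the 397 (49.6%, 51.6% and 49.4%). Among the 2822 other pairs it was the same in 58.2%, 52.7% and 51.8%, so pair 1 was lower in the antisense-partner pairs. Across the 397 pairs the correlation of the log2 fold changes was 0.07 (Pearson) and 0.06 (Spearman), a description over pairs that share libraries and scaling. Where exons did not overlap, so that reads could not be shared through exons, 44 of 90 pairs had the same sign.

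The difference between the change of an antisense RNA and that of its partner was tested with limma over all 3219 opposite-strand pairs. No pair was called, with a smallest adjusted limma p of 0.989, beside 0% of all pairs. At an unadjusted p below 0.05 there were 2 members, DCUN1D2-AS with a difference of 1.499 ± 0.61 (SE, log2) and URB1-AS1 with −0.9999 ± 0.44, beside 0.311% of all pairs. DCUN1D2-AS had met the count minimum only with 15-KETE, so its value here too is a description. With the block there were 23, beside 4.1%. The ratios of the groups did not overlap in 20 of 397 pairs, beside 3.73% of all pairs. The interval of this difference lay within 2-fold for 35 of 397 pairs.

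The pairs with the largest gap between both log2 fold changes were led by members of few counts. Besides DCUN1D2-AS, ZKSCAN7-AS1 and CD109-AS1, they were DLG5-AS1, NUP153-AS1, FOXN3-AS1, HEXIM2-AS1, SCN1A-AS1, BET1-AS1 and ILRUN-AS1. DLG5-AS1 had 13, 23 and 15 counts in the controls and 9, 11 and 9 with 15-KETE, a log2 fold change of −0.93 beside 0.43 for the scaffold gene DLG5. In DLG5 the control replicate 2 library stood at 19.6 CPM and the other 5 libraries at 70.7 to 76.4 CPM. NUP153-AS1 had 13, 41 and 7 counts against 10, 16 and 6, a log2 fold change of −1.06 beside 0.26 for the nuclear pore gene NUP153. Without control replicate 2 the NUP153-AS1 value was −0.0485. FOXN3-AS1, inside the forkhead gene FOXN3, had 11, 51 and 11 counts against 3, 30 and 9, and its log2 fold change of −0.97 became 0.15 without control replicate 2. HEXIM2-AS1 and BET1-AS1 were higher than control by 0.46 and 0.85 while HEXIM2, an inhibitor of the elongation factor P-TEFb, and the vesicle SNARE gene BET1 stood at −0.79 and −0.29. Without 15-KETE replicate 1 the BET1-AS1 value was 0.38, and without 15-KETE replicate 3 the HEXIM2-AS1 value was −0.0206. In SCN1A-AS1 the gap came from the sodium channel gene SCN1A, at 0 to 0.645 CPM, with 0.99 beside −0.14. The groups overlapped in NUP153-AS1, FOXN3-AS1, HEXIM2-AS1, SCN1A-AS1 and BET1-AS1.

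**Figure D5:**
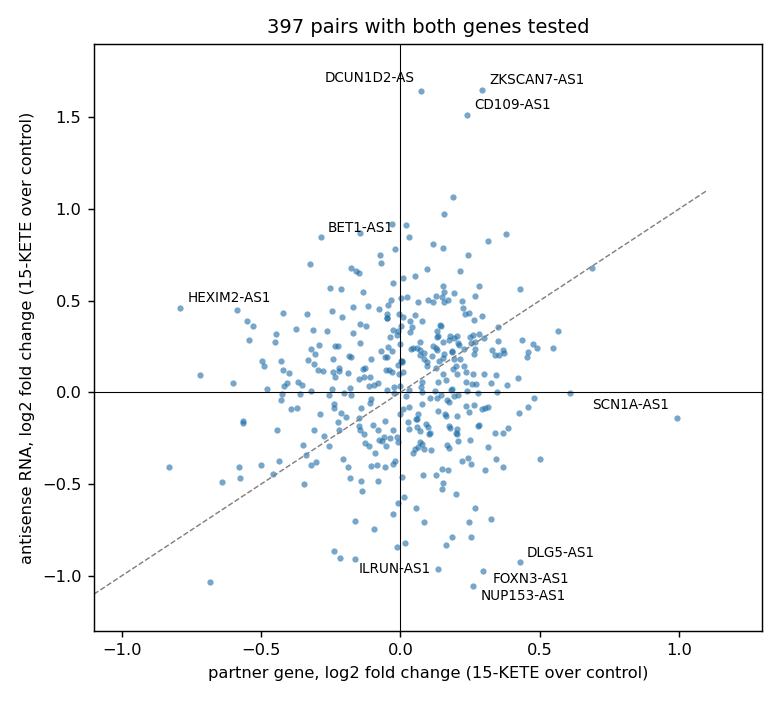
Log2 fold change (15-KETE over control) of the antisense RNA (vertical) against that of its partner (horizontal) for the 397 pairs with both genes tested, with zero lines and a dashed line of equal change. The pairs fill all 4 quadrants, with 208 of the same sign, and the named points are the 10 pairs with the largest gap.

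A list of 83 antisense RNAs known from earlier work held 44 members, all tested and none called. Their median log2 fold change was 0.13, with 33 above 0 and a range of −0.31 to 1.65, beside −0.00 for all genes. CD109-AS1, DCUN1D2-AS and ZKSCAN7-AS1 were put in this list with their results known and had met the count minimum only with 15-KETE. Without them the median of the other 41 was 0.12, with 30 above 0 and a highest value of 0.47. Without control replicate 2 the median of these 41 was 0.00956, with 22 above 0, and in the pair of replicate 3 libraries it was −0.03, with 18 above 0. MCM3AP-AS1 had 11.95, 7.29 and 19.3 CPM in the controls and 12.9, 13.97 and 18.7 CPM with 15-KETE. BACE1-AS had 4.96, 3.94 and 7.15 CPM against 5.64, 3.85 and 5.37 CPM, and BACE1 13.8, 8.10 and 18.6 CPM against 18.5, 14.6 and 21.3 CPM, which overlapped in both genes. AFAP1-AS1, tail to tail with the actin filament gene AFAP1, had 19.5, 12.2 and 21.4 CPM against 21.1, 24.5 and 19.7 CPM. ZEB1-AS1, head to head with the mesenchymal transcription factor ZEB1, had 14.04, 7.02 and 10.3 CPM against 12.1, 7.83 and 7.81 CPM. HIF1A-AS3, tail to tail with the gene of the oxygen-regulated factor HIF1A and without shared exon bases, had 3.47, 3.46 and 9.25 CPM against 5.21, 5.93 and 7.27 CPM. HIF1A itself had 536, 261 and 854 CPM in the controls and 668, 332 and 835 CPM with 15-KETE. In each of these the groups overlapped.

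Genes that act on antisense RNA or on double-stranded RNA were read beside the members, and none was called. Of 30 genes of nuclear RNA decay, all tested, 15 were above 0 with a median log2 fold change of −0.01. EXOSC4, a subunit of the RNA exosome, had the smallest p of that list, at 8.06, 35.5 and 8.17 CPM in the controls and 5.32, 12.6 and 7.75 CPM with 15-KETE (edgeR adjusted p = 0.9996). C1D and EXOSC6 followed, with log2 fold changes of −0.46 and −0.41. In all 3 genes control replicate 2 was the highest library, and the same-numbered pair 3 differed by −0.07, 0.03 and −0.16. Of 30 genes that bind or sense double-stranded RNA, 28 were tested, 21 were above 0 and the median was 0.17. By same-numbered pair the median was 0.09, 0.50 and −0.02, with 18, 22 and 11 of the 28 above 0. Without control replicate 2 it was 0.0248, with 17 above 0. OASL, an interferon-induced antiviral gene, had 1.87, 1.30 and 1.13 CPM in the controls and 1.61, 2.61 and 1.84 CPM with 15-KETE, which overlapped. ILF2, a protein that binds double-stranded RNA as part of a complex, stood at −0.42 on the log2 scale, with control replicate 2 highest. At an unadjusted p below 0.05 there were 0 genes of either list in edgeR's test, beside 0.162% of all genes. With the block there were 2 of each list, beside 4.71% of all genes.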

How the data were processed

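Polyadenylated RNA of 3 control and 3 15-KETE libraries of BEAS-2B cells was made into libraries with a SMARTer kit, per the labels' protocols. HTSeq 0.6.1, HISAT2 2.2.1 and StringTie 1.3.3b are among the tools in the submitters' processing notes, without their roles. The authors deposited raw counts per gene, which are whole numbers and were not normalised, per the file headers. The deposited FPKM values, so named per the file headers, lay within 0.01 of the counts scaled by exonic size and library depth in 100% of cases. No source used here names the genome build of the table. Of 58254 genes shared with GENCODE 29, 89.6% had the same chromosome and the same start or end on GRCh38.

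Partners were found by symbol for 463 members and by an older RefSeq symbol for 2 (ZBTB21 and DMPK), and 8 partners had 2 members each. Members, gene lists and tests were chosen with earlier results of these data known. The text names the 15 members of smallest p, the 10 of highest FPKM, the 10 largest gaps from the partner, those of a list of studied antisense RNAs, the members at the count threshold and the 3 genes of smallest p in each other list, of which 1 is not reported here. Members outside this are singled out by a count of libraries, by their arrangement or by a call in an alternative.

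Counts were tested with edgeR 4.0.16 (R 4.3.3) with filterByExpr, which left 15451 genes, TMM scaling, the robust quasi-likelihood test over all 6 libraries and Benjamini-Hochberg adjustment with a threshold of 0.05. CPM use the TMM-scaled totals, and log2 CPM a prior count of 2. Intervals are 95% intervals. Pair ratios were tested with limma 3.58.1 on the log2 CPM difference over 3219 opposite-strand pairs. Both were run on simulated data. In the edgeR run only genes of higher mean counts were changed, so it did not cover members of low counts. Deviations from the group mean correlated at 0.57, 0.646 and 0.722 between same-numbered libraries and at −0.564 to −0.092 otherwise. Deviations cancel out within a group, so the negative values follow in part from the positive ones. From the positive values the numbers, which come from the sample titles, were taken to pair the libraries. The fit with the number as a block was an alternative, as were limma-voom, DESeq2 1.42.0, limma-trend on log2(FPKM + 0.1), other scalings and filters, removal of a length trend and leaving out libraries. No libraries agreed within sampling noise: the smallest chi-square of a pair was 2.40 per gene, between both replicate 3 libraries, which belong to different groups.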

Additional observations from a re-analysis of the deposited data

How the results depend on the processing

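No member and no partner was called under any single-library omission, scaling, filter, test or replicate block. With the block and without both replicate 1 libraries 1 gene was called, and without both replicate 3 libraries 12 genes, of which 1 was a member. The number of members at an unadjusted p below 0.05, 4 in the analysis reported, was 2 with a minimum of 20 counts, 22 with the replicate block, 19, 15 and 53 with the block and without both libraries numbered 1, 2 or 3, and 0 to 37 on leaving out 1 library. The median log2 fold change of the members ran from −0.0342 to 0.20 on leaving out 1 library, and that of the partners from 0.0112 to 0.0904, with 0.11 without scaling, 0.13 on FPKM and −0.0152 after removing a length trend. The block changed no other call.

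The median antisense-to-partner log2 ratio, −3.22 in the controls and −3.14 with 15-KETE, was −2.96 and −2.92 on FPKM + 0.1, −2.57 and −2.56 for members at 10 counts in all libraries, −2.56 and −2.46 for members at 20 counts, −3.49 and −3.48 with both genes at the minimum, and −2.87 with 15-KETE for pairs without exon overlap. Pairs with the antisense RNA above its partner numbered 40 with both genes at the minimum and 24 without exon overlap, where all 39 pairs left out by the first limit had the antisense RNA above. Pairs of the same sign numbered 132 with both genes at 10 counts in all libraries and 44 without exon overlap, and fewer pairs enter these counts. On leaving out 1 library, log2 fold changes crossed 0 in FOXN3-AS1 (−2.01 to 0.15), HEXIM2-AS1 (−0.0206 to 0.88), SCN1A-AS1 (−0.35 to 0.0739), OIP5-AS1 (−0.0278 to 0.33), THAP9-AS1 (−0.0202 to 0.47), KRT7-AS (−0.23 to 0.26), RUSC1-AS1 (−0.0160 to 0.74) and SH3RF3-AS1 (−0.28 to 0.33). With the block and without both replicate 2 libraries KRT7-AS was at −0.0568 and SH3RF3-AS1 at −0.00960. The values of gene lists without control replicate 2, and of the studied list without 3 members, were chosen after seeing the data. The cause of these shifts was not tested. As to depth, 49 of the 466 met the minimum in only 3 libraries.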
